A study of Homo sapiens with 12 samples.

Results

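The human multiple myeloma line KMS11, an established cell line, was compared with and without added STK17B, over 2 libraries from cells transduced with an STK17B cDNA (overexpression) and 2 from cells with an empty vector (Vector). STK17B encodes a kinase related to the death-associated protein kinases, which phosphorylate serine and threonine. The genes examined were those with at least 1 TPM (a unit of transcript abundance that corrects for transcript length and gives each library the same total) in at least 2 of the study's 12 libraries, which left 12731 of 29607 genes. The labels give both groups as untreated and give the genotype of the Vector group as WT. The other 8 libraries, 2 for each group, came from the same line given a control shRNA (shControl), either of the STK17B hairpins sh1 and sh2, or an STK17B inhibitor. The labels do not give the vector's promoter, whether the transduced cells were a pool or a clone, or whether the 2 libraries of a group came from separate cultures. A p-value here thus reflects only how these libraries vary, which may be technical.

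Plasma cells, from which myeloma arises, secrete immunoglobulin and depend on a large protein-folding and protein-degrading machinery. KMS11 carried RNA for the plasma cell genes SDC1, TNFRSF17, IRF4, XBP1, PRDM1 and SLAMF7, while the B cell genes MS4A1 and PAX5 were among the genes that failed the filter. Hypoxia-inducible factor (HIF) is a transcription factor whose alpha subunit is marked for destruction in the presence of oxygen by prolyl hydroxylases and the VHL ubiquitin ligase. When stable, it raises genes of glucose uptake, glycolysis, acid export and vessel growth. Sterol and fatty acid synthesis genes are controlled by the SREBP factors, amino acid synthesis and transport genes by ATF4, and chaperones by heat shock factor.

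On the log2(TPM + 1) scale, 4689 genes (36.8% of those tested) differed between overexpression and Vector at an adjusted p below 0.05 (limma over all 12 libraries, Benjamini-Hochberg). Of these, 3381 genes (26.6%) were higher and 1308 (10.3%) were lower. A log2 change of 1 or more was met by 102 higher genes (0.801%) and 20 lower genes (0.157%). The split depended on the scale: over all tested genes the median log2 change was 0.08 as deposited, -0.01 with TPM rescaled to a common median of ratios and -0.02 with quantile normalization. On those 2 scales the calls were 1987 higher (15.6%) and 2614 lower (20.5%), and 2210 higher (17.4%) and 2566 lower (20.2%). Called in the same direction on all 3 scales were 1845 higher and 1273 lower genes. The called genes named below kept their direction on all 3 scales unless stated. The values of the 2 Vector libraries and the 2 overexpression libraries did not overlap for 8819 genes (69.3%).

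**Figure D1:**
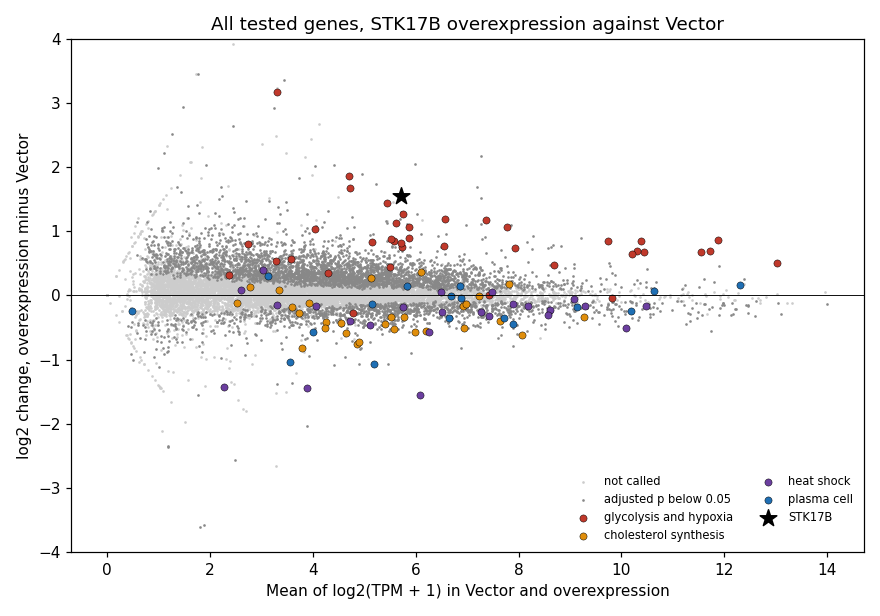
Each point is a tested gene, with its mean log2(TPM + 1) over the Vector and overexpression groups on the x axis and its log2 change (overexpression minus Vector) on the y axis, which is cut at 4 and leaves out 4 genes for short RNAs. Glycolysis and hypoxia genes (red) lie almost all above 0, with CA9 at 3.17, and cholesterol synthesis genes (orange) mostly below 0.

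Between 12027 and 12353 genes reached 1 TPM in the 4 libraries. The SD of the log2 difference over genes was 0.292 between the Vector libraries and 0.292 between the overexpression libraries, and 0.393 to 0.411 between libraries of different groups. Short RNA genes, which a poly(A) selection holds only in part, summed to 7567 and 8577 TPM in Vector and to 9893 and 10081 TPM with overexpression. Of the markers of myeloid, erythroid, stromal, epithelial and endothelial cells 5 genes in all were tested; over the 4 libraries the sums were 1.62 to 3.15 TPM (myeloid), 0 to 0.731 TPM (erythroid), 4.84 to 5.29 TPM (stromal) and 13.9 to 15.7 TPM (epithelial). Of 10 T and NK cell markers, CD7 (231 and 218 TPM in Vector, 411 and 442 TPM with overexpression) and CD3E (3.67 and 3.76 TPM, then 6.38 and 7.74 TPM) were tested and both rose, while the other 8 stayed below 1 TPM in all 12 libraries.

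STK17B itself was measured at 28.2 and 31.5 TPM in the Vector libraries and at 94.1 and 84.5 TPM in the overexpression libraries. The groups were far apart, at a ratio of 2.99 between the mean TPM values, and the transcript of the cDNA cannot be separated here from that of the resident gene on chromosome 2 (196133566 to 196176503, minus strand, GRCh38). The nearest paralog, STK17A, stood at 30.7 and 29.3 TPM and then at 35.9 and 35.7 TPM, a log2 difference of 0.25 that fell to 0.14, past no threshold, on the median-of-ratios scale. The related kinases DAPK1 (log2 difference -0.06) and DAPK3 (0.14) did not pass the test.

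Among the gene lists with at least 8 tested members, glycolysis and hypoxia had the largest share of members called higher. Of 38 tested genes of glycolysis and hypoxia, 35 were higher with overexpression and 0 were lower (92.1% higher, beside 26.6% of all tested genes), with a median log2 change of 0.80 beside 0.08. Of the 42 genes listed, EGLN3, ANGPTL4, EPO and EPAS1 failed the filter. The groups did not overlap for 37 of the 38 genes, beside 69.3% of all tested genes, and 11 rose by at least 1 log2 unit, beside 0.801%. Summed over the list, the level was 22176 and 21844 TPM in Vector and 34580 and 34461 TPM with overexpression. After the median of ratios 34 were higher and 2 lower.

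CA9, the membrane carbonic anhydrase that is a standard marker of HIF activity, was at 2.35 and 2.23 TPM in Vector and at 29.1 and 28.1 TPM with overexpression. Neither group's spread came near the other, and the mean TPM rose 12.5-fold (log2 change 3.17, SE 0.13, limma adjusted p = 4.3e-07). ENO2, an enolase isoform, went from 13.4 and 11.9 TPM to 50.1 and 47.3 TPM (log2 change 1.87). PFKFB4, a bifunctional enzyme that sets the level of an activator of phosphofructokinase, went from 13.1 and 14.2 TPM to 45.6 and 46.1 TPM (1.68). SLC16A3, the lactate exporter MCT4, stood at 15.4 and 14.6 TPM and then at 55.6 and 61.2 TPM (1.89). In each of these genes both overexpression libraries lay above both Vector libraries by a wide margin.

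ACGTG is a form of the core of the hypoxia response element, and other forms were not searched. Short stretches before the RefSeq start of 4 hypoxia-list genes that rose are shown because they hold ACGTG or its complement CACGT, in capitals. All are 5′ to 3′ on the gene's strand, from GRCh38.p14, at chr9:35673898-35673927 (CA9, plus), chr12:6914450-6914479 (ENO2, plus), chr4:185396686-185396715 (ANKRD37, plus) and chr10:73096935-73096964 (P4HA1, minus). GENCODE v29 places the start of each of these genes further upstream, and all 30 bases of each stretch lie within annotated exon sequence. Which gene or strand the exons belong to was not checked.
CA9: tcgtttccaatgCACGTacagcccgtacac
ENO2: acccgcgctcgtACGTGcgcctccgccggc
ANKRD37: cagtgtttgtgtACGTGcggccgtggcggg
P4HA1: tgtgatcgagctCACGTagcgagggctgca

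In CA9 the match ended 13 bases before the RefSeq start and lay after the GENCODE start (35673856). Searched on both strands in the 250 bases before each RefSeq start, ACGTG was present in 15 of the 33 hypoxia-list genes with a sequence in the RefSeq promoter table (45.45%), in 24.45% of the 9642 tested genes with one and in 18.68% of all 27305 entries. These windows are not free of transcribed sequence: 28 of the 33 and 78.74% of the 9642 overlapped a GENCODE exon of some gene on either strand, with a median of 212 and 66 exonic bases of the 250. Of the 5 hypoxia-list windows without an exonic base 0 held the letters, beside 21.51% of the 2050 such windows of tested genes. The letters are also part of the E-box CACGTG, so a match names no factor. The E-box itself was found in 9.355% of the tested genes with such a window. Hypoxia genes without the letters in this window, such as PFKFB4, KDM3A and P4HA2, rose as well.

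RNA for glucose transporters and for nearly every glycolytic enzyme tested was higher. Both glucose transporters tested rose, SLC2A1 by 0.82 and SLC2A3 by 0.54 on the log2 scale. Of 15 glycolytic enzymes 14 rose and 0 fell, with called changes between 0.48 (PFKP) and 1.87 (ENO2), and the same number were higher on the median-of-ratios scale. The abundant enzymes moved with the scarce ones: ENO1, the main enolase, was at 2839 and 2750 TPM in Vector and at 5076 and 5099 TPM with overexpression (0.86). GAPDH, often used as a reference gene, was at 7061 and 6948 TPM and then at 9925 and 9900.0 TPM (0.50). PFKM, the muscle-type phosphofructokinase, was the enzyme that did not pass, at 166 and 173 TPM in Vector and 174 and 168 TPM with overexpression, where the libraries overlapped.

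The enzymes at the pyruvate branch were split. LDHA, the lactate dehydrogenase subunit that favours lactate production, rose from 941 and 954 TPM to 1473 and 1490 TPM (0.64), while LDHB was at 922 and 899 TPM and then at 879 and 883 TPM (-0.05, not called). LDHB was called lower on the median-of-ratios scale (-0.16). The pyruvate dehydrogenase kinases of the list, which inhibit pyruvate dehydrogenase, were higher, PDK1 by 0.89 and PDK3 by 0.32. The call of PDK3 was lost on the median-of-ratios scale (0.23).

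Among the other HIF targets, the angiogenic factor VEGFA rose from 60.9 and 63.3 TPM to 145 and 140.3 TPM (1.19). ANKRD37 rose from 25.3 and 25.6 TPM to 69.7 and 71.9 TPM (1.44), and HILPDA, a lipid droplet protein, from 33.2 and 31.8 TPM to 80.8 and 82.6 TPM (1.303). The collagen prolyl hydroxylases P4HA1 (1.27) and P4HA2 (1.04), the mitophagy receptors BNIP3L (1.12) and BNIP3 (0.78), the histone demethylase KDM3A (1.07) and NDRG1 (1.18) were all higher. ADM, which encodes the vasodilator adrenomedullin, was low at 4.12 and 4.03 TPM and rose to 8.11 and 7.51 TPM (0.79). Across these targets the 2 overexpression libraries lay close together and clear of Vector.

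The oxygen-sensing genes did not share 1 direction. EGLN1, a prolyl hydroxylase that is itself a HIF target, rose by 0.88 and VHL by 0.35. HIF1A mRNA was at 27.1 and 31.2 TPM in Vector and at 25.6 and 22.1 TPM with overexpression, so that it was the lowest member of the list (-0.28, adjusted p = 0.051). It was called lower on both other scales, at -0.39 (median of ratios) and -0.40 (quantile). HIF protein was not measured.

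**Figure D2:**
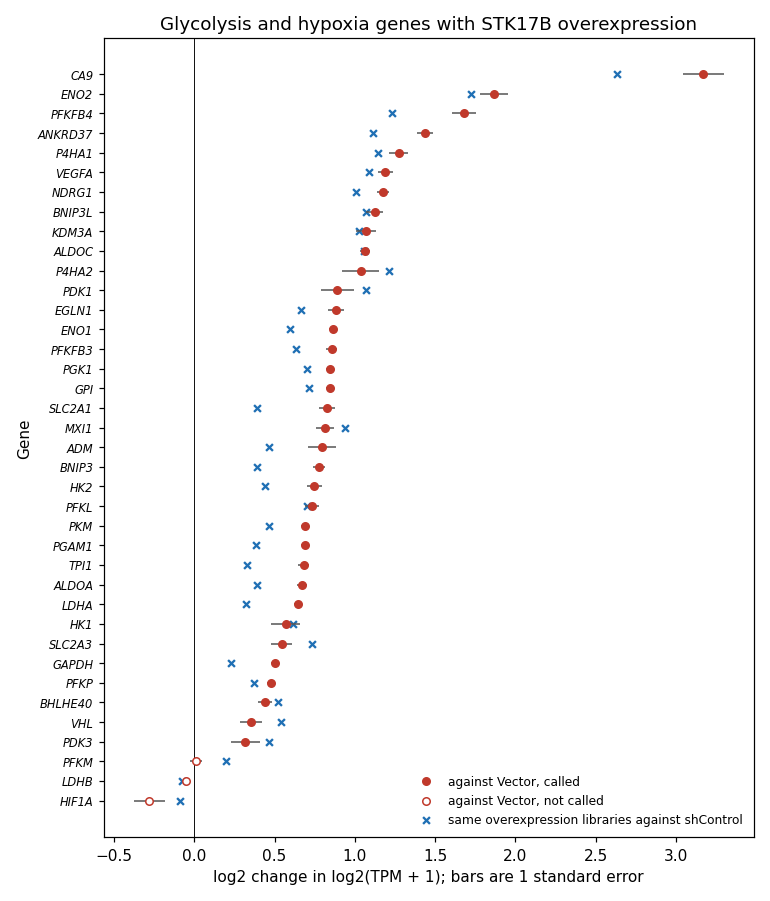
Log2 change of each tested glycolysis and hypoxia gene with overexpression against Vector (circles, filled where called, with 1 standard error) and against shControl (crosses). All genes but HIF1A, LDHB and PFKM are called higher against Vector, and CA9 is highest with either control.

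The microRNA gene MIR210, a HIF target on chromosome 11 (568089 to 568198, minus strand), was listed at 0 in both Vector libraries and at 120.1 and 221 TPM in the overexpression libraries. A poly(A) library holds such a short transcript irregularly: the shControl libraries were at 94.1 and 15.6 TPM, so no fold is given. Its host transcript MIR210HG, named after its values were seen, was steadier at 8.57 and 10.4 TPM in Vector and at 43.0 and 40.4 TPM with overexpression (2.03). The mature sequences from RefSeq, printed because the arms carry different seeds (bases 2 to 8, in capitals), are these.
hsa-miR-210-3p: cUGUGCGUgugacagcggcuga
hsa-miR-210-5p: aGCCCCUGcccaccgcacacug

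The Vector libraries were themselves lower than shControl in this group of genes, with 20 of 38 members lower and 1 higher (7.86% and 21.4% of all tested genes) and a median of -0.14. Against shControl in place of Vector, overexpression had 36 of 38 members higher and 1 lower (44.9% and 13.7% of all tested genes) and a median of 0.62. CA9 was at 3.18 and 4.43 TPM in shControl, still far below both overexpression libraries (2.63). LDHA was at 1182 and 1183 TPM there, and the log2 difference was 0.33. In the hairpin libraries 24 of the 38 were lower than shControl and 4 higher (20.2% and 26.2% of all tested genes), and with the inhibitor 33 were lower and 1 higher (11.8% and 28.0%), with medians of -0.23 and -0.90. CA9 stood between 1.77 and 1.88 TPM with the hairpins and at 0.112 and 0.335 TPM with the inhibitor.

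**Figure D3:**
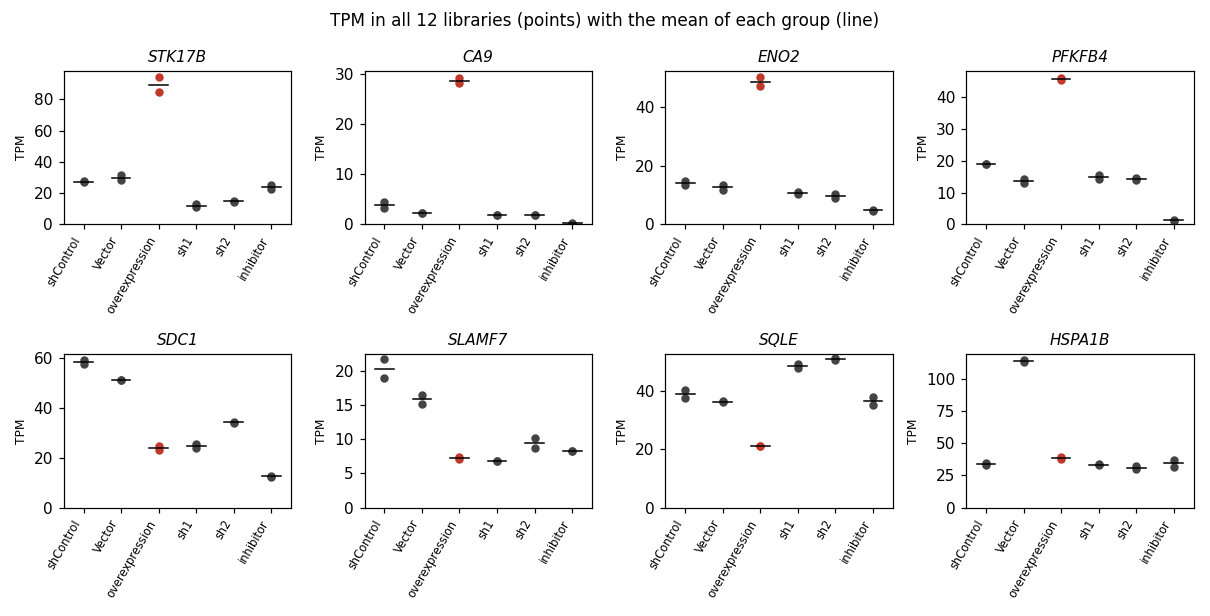
TPM of 8 genes in all 12 libraries (points) with the mean of each group (line), on linear axes from 0. CA9, ENO2 and PFKFB4 are highest with overexpression, SDC1 and SLAMF7 are low with overexpression, with the hairpins and with the inhibitor, and HSPA1B is high in the Vector libraries, at 115 and 114 TPM.

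Outside the hypoxia list, TXNIP and CDKN1C were among the largest increases. TXNIP, which binds thioredoxin and restrains glucose uptake, went from 80.9 and 79.1 TPM to 265 and 257 TPM (1.70), a ratio of 3.27. Of the 9 tested members of its list, the arrestin relatives ARRDC2 (0.59) and ARRDC3 (0.44) rose too, while ARRB1 (-0.53) and MLXIP (-0.26) fell. CDKN1C, the CDK inhibitor p57, went from 5.71 and 5.77 TPM to 17.5 and 17.4 TPM (1.45). DDIT4, an inhibitor of mTORC1 induced by hypoxia and other stress, rose from 308 and 299.9 TPM to 500.1 and 530.3 TPM (0.76), and SESN1, a sestrin, rose by 0.69. Their list of mTOR and stress inhibitors had 8 of 26 members higher and 4 lower (30.8% and 15.4%, beside 26.6% and 10.3% of all tested genes), and 3 higher and 5 lower on the median-of-ratios scale. TXNIP, CDKN1C, DDIT4 and SESN1 each had a clear gap between the groups.

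Other genes with large increases had no common role. IGFBP4, a binding protein of insulin-like growth factors, stood at 19.7 and 19.1 TPM and then at 64.7 and 69.4 TPM (1.74). PPFIA4, a liprin of cell adhesion sites, went from 5.70 and 6.34 TPM to 23.4 and 24.7 TPM (1.84). PLXNB2, a semaphorin receptor, went from 6.22 and 6.08 TPM to 16.6 and 17.4 TPM (1.33). SPINK2 (1.69), KCNJ4 (1.55), an inward rectifier potassium channel, and SH3D21 (1.37) completed the 15 protein-coding genes with the largest increases together with those above. SPINK2 and KCNJ4 were low in Vector, at or below 1.76 TPM, where the added 1 TPM makes the change look smaller.

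**Figure D4:**
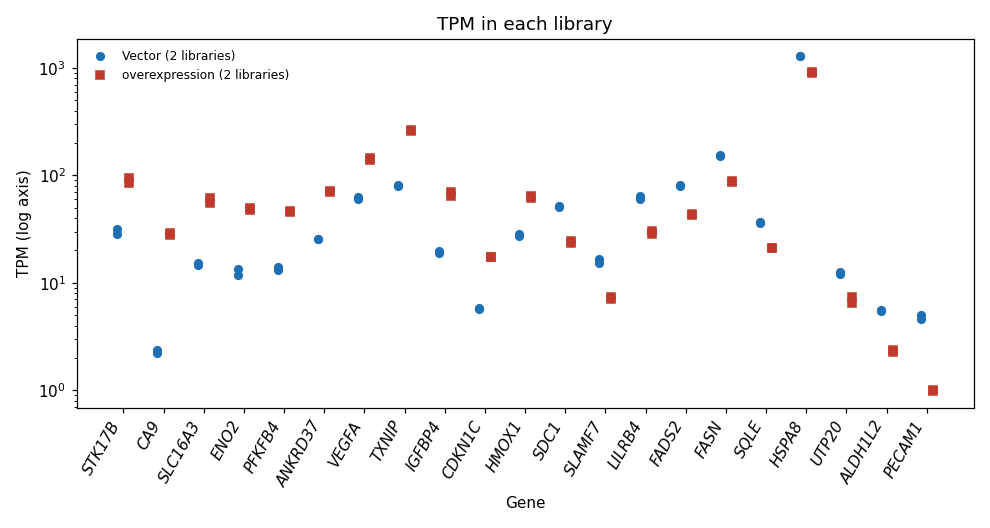
TPM of 21 genes in each of the 4 libraries on a log axis, Vector as circles and overexpression as squares. The 2 libraries of a group lie close together, and for every gene plotted the groups are apart, from STK17B (28.2 and 31.5 TPM against 94.1 and 84.5 TPM) to PECAM1 (5.03 and 4.62 TPM against 0.985 and 0.996 TPM).

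Surface and identity genes of plasma cells were among the largest decreases. SDC1, the syndecan CD138 used to identify plasma cells, was at 51.5 and 51.2 TPM in Vector and at 23.3 and 24.8 TPM with overexpression (-1.06). SLAMF7, the target of elotuzumab, was at 15.2 and 16.5 TPM and then at 7.40 and 7.07 TPM (-1.03). Both were less than 0.5 times their Vector level. In RNA from a whole culture, fewer cells with a transcript and less of it per cell cannot be told apart.

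The plasma cell list as a whole was mixed: of 17 tested members 8 fell and 4 rose (10.3% and 26.6% of all tested genes), with a median of -0.18, and on the median-of-ratios scale 10 were lower and 0 higher. EAF2 (-0.57), the coactivator POU2AF1 (-0.44), the BCMA gene TNFRSF17 (-0.35), IRF4 (-0.35) and XBP1 (-0.25) fell. TNFRSF17 moved from 237 and 234 TPM to 183 and 184 TPM, and IRF4 from 111 and 112 TPM to 88.8 and 85.5 TPM. PRDM1 did not pass (-0.14), nor did MYC (0.06; -0.05 on the median-of-ratios scale). CD44 (0.30), the J chain gene IGJ (0.17), TNFRSF13B (0.14) and TXNDC5 (0.07) were higher. TXNDC5 changed sign on the median-of-ratios scale (-0.05), and TNFRSF13B did so against shControl (-0.02).

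SDC1 was lower than its control in the other manipulated groups too, at 24.1 to 34.5 TPM with the hairpins and 12.5 to 12.7 TPM with the inhibitor, against 57.7 and 59.4 TPM in shControl. SLAMF7 was at 6.76 to 10.2 TPM and at 8.24 to 8.35 TPM in those libraries, against 18.9 and 21.7 TPM. For these genes, then, STK17B hairpins and STK17B cDNA stood on the same side of their controls.

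Antigen presentation genes of class II were lower, by small amounts. Of 16 B cell and MHC class II genes 10 fell and 0 rose (62.5% lower, beside 10.3% of all tested genes, median -0.14). On the median-of-ratios scale 13 were lower, beside 20.5% of all tested genes. The peptide-loading gene HLA-DMA fell by 0.49, from 179 and 180.3 TPM to 123 and 132 TPM, and CIITA, the master regulator of class II genes, by 0.44, from 52.6 and 53.2 TPM to 38.6 and 38.9 TPM. IRF8 (-0.31) and HLA-DMB (-0.31) followed. Against shControl 8 of the 16 were lower and 5 higher (13.7% and 44.9% of all tested genes), and the median was nearer 0 (-0.06).

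Receptors among the 15 protein-coding genes with the largest decreases were LILRB4, an inhibitory leukocyte receptor, from 60.7 and 64.5 TPM to 28.4 and 30.3 TPM (-1.07), and the interleukin 3 receptor gene IL3RA (-0.94). NLRP7, from 31.2 and 28.9 TPM to 13.4 and 13.8 TPM (-1.09), and KIAA1549L, from 42.7 and 41.9 TPM to 19.7 and 19.3 TPM (-1.08), fell as far. PECAM1, an adhesion molecule that also marks endothelium, went from 5.03 and 4.62 TPM to 0.985 and 0.996 TPM (-1.55). The other endothelial markers VWF, CDH5, KDR and TEK failed the filter. LOC102724594, listed at 14.2 and 11.04 TPM and then at 1.27 and 1.32 TPM, is a near-identical copy of U2AF1 and its value is uncertain, since U2AF1 itself stood at 505 and 499.7 TPM and at 504.5 and 503 TPM.

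Cholesterol synthesis genes were mostly lower. Of 29 tested members 20 were lower and 3 higher (69.0% and 10.3%, beside 10.3% and 26.6% of all tested genes), with a median of -0.34, and 21 were lower and 1 higher on the median-of-ratios scale. Summed, the list stood at 2745 and 2730 TPM in Vector and at 2226 and 2226 TPM with overexpression. SQLE, squalene epoxidase, was at 36.3 and 36.7 TPM and then at 21.3 and 21.1 TPM (-0.75). CYP51A1, lanosterol demethylase, was at 36.7 and 37.3 TPM and then at 22.6 and 21.5 TPM (-0.72). For SQLE and CYP51A1 both overexpression libraries lay below both Vector libraries.

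Earlier steps and regulators of the pathway were affected too. HMGCS1 fell by 0.58, IDI1 by 0.55 and FDFT1 by 0.50. INSIG1, which holds SREBP in the ER and is its target, fell by 0.61. The regulator SREBF2 moved little (-0.13) and SREBF1 did not pass (-0.01). SCAP (0.27), PMVK (0.18) and the sterol exporter ABCG1 (0.36) were the genes that rose. Against shControl 20 of the 29 were again lower and 3 higher (13.7% and 44.9% of all tested genes), with a median of -0.45. With the hairpins 14 were higher and 5 lower than shControl (26.2% and 20.2% of all tested genes, median 0.12). The inhibitor had 2 higher and 19 lower than shControl (28.0% and 11.8%, median -0.25). SQLE stood at 47.9 to 51.3 TPM with the hairpins against 37.8 and 40.4 TPM in shControl.

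Fewer fatty acid synthesis genes passed, but the main enzymes were among them. Of 23 tested members 6 fell, 1 rose and 16 were not called (median -0.05). The shares that fell and rose were 26.1% and 4.35%, beside 10.3% and 26.6% of all tested genes. Against shControl 8 were lower and 7 higher (13.7% and 44.9% of all tested genes). FASN, the fatty acid synthase, went from 156 and 153 TPM to 86.1 and 88.4 TPM (-0.82), ACACA, acetyl-CoA carboxylase, from 17.2 and 17.0 TPM to 10.4 and 10.1 TPM (-0.68), and the stearoyl-CoA desaturase SCD from 240.2 and 246 TPM to 157 and 151 TPM (-0.66). The polyunsaturated fatty acid desaturases FADS2, at 82.2 and 80.4 TPM and then at 42.6 and 43.4 TPM (-0.90), and FADS1 (-0.44) fell as well. The de novo synthesis enzymes and the desaturases named here were thus lower, while DGAT1 was higher (0.23).

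Genes that act on ferroptosis, an iron-dependent death by lipid peroxidation that the study's title links to STK17B, moved in both directions. Of 33 tested suppressors 8 fell and 2 rose (24.2% and 6.06%, median -0.05). Of 30 drivers 6 fell and 3 rose (20% and 10%, median 0.01). Of all tested genes 10.3% fell and 26.6% rose, so both lists held a larger share of falls and a smaller share of rises. On the median-of-ratios scale 15 suppressors fell and 0 rose, and 12 drivers fell and 2 rose. The shares of all tested genes there were 20.5% lower and 15.6% higher. GPX4, the lipid peroxide reductase, was at 336 and 312 TPM in Vector and at 363 and 355 TPM with overexpression (0.15), a call lost on the median-of-ratios scale (0.04). SLC7A11, the cystine transporter, failed the filter. Its partner SLC3A2 fell by 0.51 and the driver ACSL4 did not pass (-0.05).

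Haem and iron genes gave the largest single change of these lists. HMOX1, haem oxygenase 1, which frees iron from haem, went from 27.1 and 28.2 TPM to 61.6 and 64.9 TPM (1.16). FTL, the ferritin light chain, went from 1222 and 1284 TPM to 1614 and 1729 TPM (0.42), whereas FTH1, the heavy chain, stood at -0.07 (0.20 against shControl) and TFRC at -0.13, neither called. NCOA4, the ferritin autophagy receptor, was higher (0.24), a call lost on the median-of-ratios scale (0.13). Of 26 iron genes 5 rose and 7 fell (19.2% and 26.9%, beside 26.6% and 10.3% of all tested genes), and 3 were higher and 12 lower on the median-of-ratios scale. Of 30 NRF2 and glutathione genes 12 fell (40.0%), among them NQO1 (-0.41), GSTP1 (-0.39) and ME1 (-0.44), and 7 rose (23.3%), among them CAT (0.49) and TIPARP (0.58). On the median-of-ratios scale 17 were lower and 3 higher.

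Genes of protein synthesis and folding were lower by small amounts in large numbers. Of 34 MYC and ribosome biogenesis genes 24 fell and 1 rose (70.6% and 2.94%, median -0.21), beside 10.3% and 26.6% of all tested genes. On the median-of-ratios scale 30 were lower, beside 20.5% of all tested genes. UTP20, a processing factor of the small ribosomal subunit, went from 12.2 and 12.6 TPM to 7.44 and 6.53 TPM (-0.75), and RRP9 (-0.47), RRP12 (-0.46) and POLR1A (-0.41), the large subunit of RNA polymerase I, followed. LDHA, which the list holds as a MYC target, was its rising member. Of 58 cytosolic ribosomal protein genes 30 fell and 1 rose (51.7% and 1.72%, median -0.12). The counts depended on the scale, with 24 lower and 5 higher after quantile normalization (20.2% and 17.4% of all tested genes). On the median-of-ratios scale 45 were lower and 0 higher (20.5% and 15.6% of all tested genes). Of 56 mitochondrial ribosomal protein genes 25 fell and 0 rose (44.6% lower, median -0.14).

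The proteasome list had 23 of 32 subunits lower and 0 higher (71.9% lower, beside 10.3% of all tested genes, median -0.19). PSMA5 (-0.36), PSMB3 (-0.36) and PSMB5 (-0.23), which encodes the bortezomib-binding subunit, were among them. No subunit moved by more than 0.36, and against shControl 28 of the 32 were lower and 0 higher (13.7% and 44.9% of all tested genes). Vector itself had 22 of the 32 lower than shControl and 0 higher (7.86% and 21.4% of all tested genes, median -0.17). The ER unfolded protein response list had 14 of 37 lower and 4 higher (37.8% and 10.8%, median -0.09). Of all tested genes 10.3% were lower and 26.6% higher. HSP90B1 (-0.48) and SEC61B (-0.44) were lower, and ERO1L (0.39) and P4HB (0.26) were higher.

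Of 33 amino acid genes of the ATF4 response 19 fell and 4 rose (57.6% and 12.1%, median -0.19). Of all tested genes 10.3% fell and 26.6% rose. ATF4 mRNA went from 670.4 and 637 TPM to 476 and 493 TPM (-0.43). ALDH1L2, a mitochondrial folate enzyme, went from 5.59 and 5.45 TPM to 2.37 and 2.24 TPM (-0.98), and CHAC1, which degrades glutathione, from 5.82 and 6.02 TPM to 2.71 and 3.43 TPM (-0.77). The large amino acid transporter gene SLC7A5 went from 306 and 305 TPM to 199 and 203 TPM (-0.60), and PSAT1 of serine synthesis fell by 0.55. The 4 members that rose were VLDLR (1.19), DDIT4 (0.76), STC2 (0.40) and ATF5 (0.32). VLDLR and DDIT4 are also hypoxia-inducible, and ATF5 was lower against shControl (-0.13). Of 18 aminoacyl-tRNA synthetase genes 11 fell and 2 rose (61.1% and 11.1%), the former led by GARS (-0.51), YARS (-0.47) and MARS (-0.43).

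Of 24 chaperone genes 17 fell and 1 rose (70.8% and 4.17%, beside 10.3% and 26.6% of all tested genes, median -0.20). Against shControl 14 fell and 4 rose (13.7% and 44.9% of all tested genes). The largest of the changes against Vector rested on the Vector libraries. HSPA1B was at 115 and 114 TPM in Vector and at 37.6 and 39.4 TPM with overexpression (-1.55), while shControl held 34.6 and 32.8 TPM and overexpression was slightly higher than that (0.19). HSPA6 was likewise at 6.81 and 7.01 TPM in Vector, at 1.66 and 2.22 TPM with overexpression (-1.44) and at 0.625 and 0.665 TPM in shControl (0.83). HSPA1A (-1.44) gave -0.05 against shControl and shares near-identical sequence with HSPA1B, so the separate values of the pair are uncertain. The Vector libraries were thus the ones that stood apart for these 3 genes.

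Other chaperones were lower with either control. HSPA8 was at 1305 and 1284 TPM in Vector and at 908 and 915 TPM with overexpression (-0.51; -0.73 against shControl). HSPH1 (-0.46), CHORDC1 (-0.41), AHSA1 (-0.33) and HSPE1 (-0.30) moved likewise.

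The lists tested are set side by side in the plot of called shares by list, which gives the background of all genes as dashed lines.

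**Figure D5:**
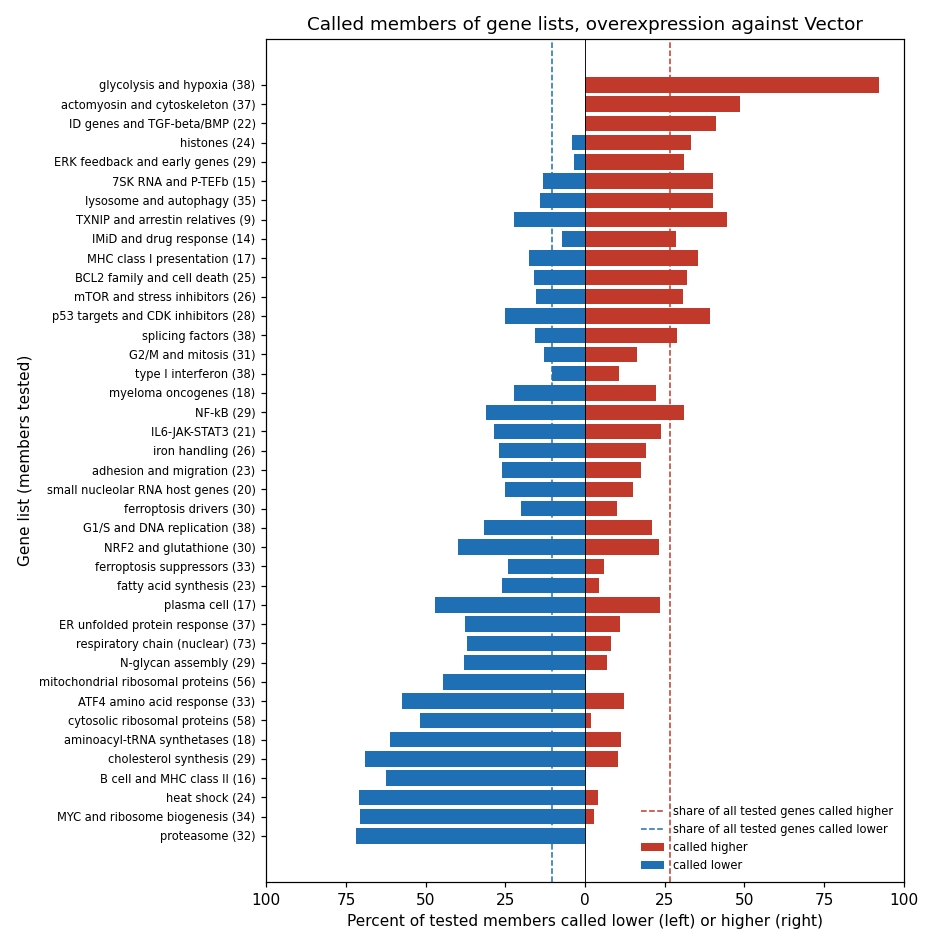
Percent of the tested members of each gene list with at least 8 tested members that were called higher (right, red) or lower (left, blue) with overexpression, with the number tested in brackets and the shares of all tested genes (26.6% and 10.3%) as dashed lines. Glycolysis and hypoxia stands at 92.1% higher, and the proteasome, MYC and ribosome biogenesis, heat shock and cholesterol lists show the largest shares lower.

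Cytoskeleton genes rose in part. Of 37 actomyosin genes, a group of interest since death-associated kinases act on myosin light chain, 18 rose and 0 fell (median 0.14). The share that rose was 48.6%, beside 26.6% higher and 10.3% lower of all tested genes. After quantile normalization 16 were higher and 1 lower, beside 17.4% and 20.2% of all tested genes. Only 7 were higher and 2 lower on the median-of-ratios scale, a higher share near that of all tested genes (15.6%, with 20.5% lower). TAGLN2 (0.47), ZYX (0.43) and ACTG1 (0.34) rose most, and all 3 stayed positive there. Of 22 ID and TGF-beta/BMP genes 9 rose and 0 fell (40.9% higher, median 0.18). Among the higher ones were ID1, from 18.3 and 19.4 TPM to 27.3 and 35.0 TPM (0.69), TGIF1 (0.56), ID3 (0.47) and SMAD3 (0.45). After the median of ratios 8 of the 22 were higher and 1 lower. Of 29 ERK feedback and early genes 9 rose and 1 fell, a higher share (31.0%) near that of all tested genes (26.6%), and the counts were 5 and 3 on the median-of-ratios scale. SPRY1 (0.72), DUSP6 (0.52) and SPRED1 (0.47) were among the higher ones.

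Of 35 lysosomal genes 14 rose and 5 fell (40% and 14.3%, beside 26.6% and 10.3% of all tested genes, median 0.06). The split became 8 and 8 on the median-of-ratios scale, beside 15.6% and 20.5% of all tested genes. CTSZ went from 9.87 and 8.58 TPM to 20.5 and 19.9 TPM (1.05) and CTSB, an abundant cathepsin, from 344 and 345 TPM to 584 and 592 TPM (0.77). ULK1, a kinase that starts autophagy, was higher by 0.53, while WIPI1 (-0.38) and GLA (-0.37) fell. WIPI1 changed sign against shControl (0.12).

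Death and cell cycle genes were split as well. The BH3-only genes BMF, from 44.5 and 47.1 TPM to 72.0 and 71.1 TPM (0.63), and BCL2L11, from 22.2 and 26.6 TPM to 35.5 and 33.3 TPM (0.48), rose, and the anti-apoptotic BCL2L1 fell from 166 and 168 TPM to 118 and 122 TPM (-0.47). Of 25 genes of the family 8 rose and 4 fell (32% and 16%), and 5 rose and 7 fell on the median-of-ratios scale. These shares were near those of all tested genes, 26.6% and 10.3%, and 15.6% and 20.5% on the median-of-ratios scale. Among p53 targets and CDK inhibitors 11 of 28 rose and 7 fell (39.3% and 25%), and 5 rose and 8 fell on that scale. DDB2 (0.59), FDXR (0.54) and BTG2 (0.52) were among the higher ones beside CDKN1C, and CDKN1A did not pass (0.15). Of 38 G1/S genes 8 rose and 12 fell (21.1% and 31.6%, median -0.05). Of 31 G2/M genes 5 rose and 4 fell (16.1% and 12.9%, median 0.03). On the median-of-ratios scale the numbers were 2 and 22, and 3 and 12.

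Cytokine and interferon genes gave no common direction. Among 29 NF-kB genes 9 rose and 9 fell (31.0% each, beside 26.6% and 10.3% of all tested genes). On the median-of-ratios scale 5 rose and 11 fell, beside 15.6% and 20.5% of all tested genes. The chemokine CCL5 (0.96, from 49.2 and 46.9 TPM to 92.4 and 96.6 TPM), TRAF1 (0.95) and CCL3 (0.80) were higher. CXCL10 (-0.97, from 27.8 and 39.9 TPM to 18.1 and 15.2 TPM) was lower. Of 38 type I interferon genes 4 rose and 4 fell (10.5% each, beside 26.6% and 10.3% of all tested genes), and 2 were higher and 9 lower after quantile normalization. Against shControl 20 were higher and 3 lower (44.9% and 13.7% of all tested genes). Vector itself had 18 of the 38 higher than shControl (21.4% of all tested genes). OASL, an antiviral synthetase relative, was lowest (-0.92; -0.32 against shControl). The interleukin 6 receptor gene IL6R fell by 0.45 from 29.3 and 28.9 TPM to 20.9 and 21.3 TPM, a call lost against shControl (-0.10), and STAT3 did not pass (0.00), although it was called lower on the median-of-ratios scale (-0.10).

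Of the translocation oncogenes, MAF was higher, and FGFR3 and WHSC1 moved less. FGFR3 was at 1233 and 1232 TPM in Vector and at 1417 and 1415 TPM with overexpression (0.20), WHSC1 at 0.11 and MAF at 0.37. The calls of FGFR3 and WHSC1 were lost on the median-of-ratios scale (0.09 and 0.00), and MAF, from 166 and 178 TPM to 226 and 219 TPM, kept its call (0.26).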

How the data were processed

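RNA of KMS11 cells was poly(A)-selected and sequenced as stranded DNBSEQ libraries, per the labels' protocols. The deposited values were TPM per gene, made by the authors, and the submitters' processing notes list RSEM 1.3.1, DESeq2 1.4.5, HISAT, Bowtie2 2.3.4.3 and, as the build, GRCh38.p13, without saying what each did. Read counts were not used here, so the depth of each library is unknown and no count model was fitted. Control columns carry no group name; they were mapped to shControl and Vector because the number in the name matches the library number in the labels, which is an inference. All other columns were used (0 left out).

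Genes with 1 TPM or more in at least 2 of 12 libraries were kept and values were log2(TPM + 1), which understates changes of low genes. limma 3.58.1 in R 4.3.3 estimated the mean of every group, 6 in all (6 residual degrees of freedom) with eBayes and a mean-variance trend. The contrast was overexpression minus Vector, with Benjamini-Hochberg adjustment over all 12731 genes and a call at an adjusted p below 0.05. A permutation test of 2 against 2 libraries cannot reach that threshold and none was run. Fold ratios are ratios of mean TPM. The fit was tested on simulated data.

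Genes named are STK17B and STK17A; the 15 protein-coding and 4 other genes with the largest called changes each way (5 TPM or more in the higher group, no overlap, same direction on all 3 scales); up to 4 called members per direction of each of 48 lists (47 with a tested member); a panel of ferroptosis and myeloma genes; and list members called with a 2-fold change. Further list members are named as examples, chosen after their values were seen, and some genes that the rule names are left out here. The members and lists were chosen with earlier results of these data known. Other settings tried were the pseudocounts 0.5 and 0.1, a 5 TPM filter or none, the 4 libraries alone, the median of ratios, quantile normalization, scaling without the 20 most abundant genes, eBayes without trend or robust, a replicate block, a 2-fold minimum, each library left out and shControl as control. Scaling protein-coding genes alone to the TPM total was added after the data were seen. Gene positions come from GENCODE v29, and promoter and miRNA sequences from RefSeq (GRCh38.p14).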

Additional observations from a re-analysis of the deposited data

How the results depend on the processing

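STK17B was called higher under every alternative run. Of the counts of called genes, those after the median of ratios (1987 higher, 2614 lower), quantile normalization (2210 higher, 2566 lower), a 2-fold minimum (122 in all, 102 higher, 20 lower) and shControl as the control (7468 in all, 5721 higher) differed from the 4689, 3381 and 1308 reported by more than 1.5 times. With shControl 3027 of the higher and 993 of the lower genes kept their call and 64 were called the other way. Leaving out 1 library gave 2287 to 2719 higher and 907 to 1003 lower genes, with the lone library assumed to vary like the other groups. The replicate block gave 3289 higher and 1276 lower. Deviations of same-numbered overexpression and Vector libraries had a correlation over genes of -0.06. With 2 libraries a group this cannot decide whether the numbers pair libraries, and the labels do not say. Of 268 named and called genes, 230 kept their call and direction after the median of ratios, 248 after quantile normalization and 224 with shControl. Signs changed with shControl as control for HSPA1B (0.19), HSPA6 (0.83), TNFRSF13B (-0.017), B2M (0.14), RBX1 (-0.16), SAT1 (0.89), ATF5 (-0.13), CRELD2 (-0.024), WIPI1 (0.12), CTSS (0.10), NDUFB2 (-0.046), TYMS (-0.015), GADD45A (0.44), CDKN2B (0.032), BST2 (0.11), SNHG7 (-0.050), GAS5 (0.024), C6orf48 (0.56), FTH1 (0.20) and PRDM1 (0.069). They changed after the median of ratios for TXNDC5 (-0.045), RBX1 (-0.035), MYC (-0.053) and STAT3 (-0.10), for STAT3 also after quantile normalization (-0.086), without the 20 most abundant genes (-0.0097) and without 1 library (-0.017 to 0.024 over the 4 libraries), and for ACSL4 without 1 library (-0.15 to 0.055). The cause of these shifts was not tested. The depth of the libraries is unknown, so its limit on low genes cannot be given.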

Other observations

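Non-coding and short RNAs gave the largest values of the comparison, with wide spread. RN7SK, a small nuclear RNA that sequesters P-TEFb, was at 28.4 and 31.5 TPM in Vector and at 129 and 125 TPM with overexpression. RNA5S1, a 5S ribosomal RNA gene with many near-identical copies, was listed at 0 in both Vector libraries and at 18.4 and 45.6 TPM with overexpression. The small nucleolar RNAs SNORA41 (6.71 and 33.4 TPM) and SNORA31 (7.02 and 14.0 TPM) were listed at 0 in Vector. In the other direction SNORD12B (48.0 and 47.7 TPM in Vector), SNORA71D (10.97 and 11.4 TPM) and SNORA20 (6.19 and 19.0 TPM) were listed at 0 in both overexpression libraries. SNORD12B was listed at 0 in shControl too. SNORA63 stood at 34.8 and 23.9 TPM and then at 6.27 and 6.27 TPM. A poly(A) selection keeps such RNAs only in part, and the share of TPM in short RNA genes was higher in the overexpression libraries.

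Of 24 histone genes 8 rose and 1 fell (33.3% and 4.17%, beside 26.6% and 10.3% of all tested genes; 5 and 2 on the median-of-ratios scale), with a median log2 change of 0.18 beside 0.08 for all tested genes. The linker histone genes H1F0, from 2.21 and 3.51 TPM to 6.90 and 6.22 TPM (0.99), and H1FX (0.60) rose, and so did the replication-dependent genes HIST1H2BD (0.67) and HIST1H2AC (0.51), whose near-identical relatives make separate values uncertain. H2AFZ fell by 0.24.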
